A study of Mus musculus with 14 samples.

Results

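The 36 genes described here encode proteins that release, take up, bind, activate and oxidise fatty acids, or act beside these steps. They were chosen as a list of named genes by their textbook function, with earlier results of these data known. Probes were matched to them by accession, which a RefSeq gene table paired with gene symbols. All 36 were among the 14870 named genes with a tested probe, 27 with 1 tested probe and 9 with 2. RNA was hybridised to 1-colour Agilent mouse arrays, 1 sample per array, from the ventricular border zone, the living muscle beside the infarct. The MI 3 days group (5 arrays) and the MI 14 days group (5 arrays) came from mice whose left anterior descending coronary artery had been tied off for good 3 or 14 days earlier, which causes a myocardial infarction (MI). The sham group (4 arrays) had the same operation without ligation, and the labels do not say how long after surgery the sham hearts were taken. All groups were male C57BL/6 mice labelled as 8 weeks old. The design text names 10 ligated and 5 sham-operated mice, and 4 sham arrays were analysed here. The labels number the arrays of a group without saying how each relates to an animal, so p-values measure the spread between these samples.

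Long-chain fatty acids are the main fuel of the adult heart. They enter the cell through transport proteins, are carried by a binding protein, and are joined to coenzyme A by acyl-CoA synthetases. The carnitine shuttle then moves the acyl group into mitochondria, where a cycle of dehydrogenation, hydration, a further dehydrogenation and thiolysis shortens the chain, and electrons pass through the electron transfer flavoprotein to the respiratory chain. Malonyl-CoA, made by acetyl-CoA carboxylase and removed by malonyl-CoA decarboxylase, restrains the first step of the shuttle.

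Levels below are log2 of the processed signal minus the array's 75th percentile, so a gene at 0 is as bright as the array's 75th percentile. They are compared between arrays for 1 gene and not between genes. Changes are log2 fold changes ± SE from a limma fit of the 3 groups, where n = 5 at 3 days, n = 5 at 14 days and n = 4 in sham, and a change passed the test at a Benjamini-Hochberg adjusted p under 0.05 over all 32261 tested probes. The 75th percentile of the signal was 188.6 to 443.0 intensity units per array, and 54.8% to 66.1% of probes were well above background on the 10 arrays with scanner output. Of the 36 genes, all except Acsm5 were well above background on each of those 10 arrays. The 14 sarcomere genes used here as markers of cardiomyocytes were each well above background on scanner arrays of every group. Some arrays stood apart. MI 3 days replicate 3 carried skeletal muscle genes, with Pvalb at 3.28 against at most -1.29 on the other MI 3 days arrays and Myh4 at 5.03 against at most -4.51. Myh4 also reached 1.28 in MI 14 days replicate 5. MI 14 days replicate 3 had the fat-cell gene Adipoq at 1.88 against at most -2.43 in the rest of its group, and a summed adipocyte marker level of 71.4 against 22.2 to 28.3. The same array had the lowest level of its group for 29 of the 36 genes, and MI 14 days replicate 5 the highest for 29. The spread within MI 14 days (median SD 0.33) was wider than within MI 3 days (0.16) or sham (0.12), and it was the widest of the 3 groups for 30 of the 36 genes. Without MI 14 days replicate 3 the median change of the 36 genes at 14 days was -0.61, with 31 lower and 2 higher. Without MI 3 days replicate 3 the median change at 3 days was -1.53, with 32 lower and 3 higher.

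At 3 days after MI, 32 of the 36 genes were lower than in sham hearts and 3 were higher, with 1 not past the test. Over all 14870 named genes 40.5% were lower and 29.8% higher. The median change of the 36 genes was -1.58, and that of all named genes was -0.15. In 32 genes every MI 3 days array lay below every sham array (36.1% of all genes) and in 3 every one lay above (27.1% of all genes). At 14 days 31 genes were lower, 2 higher and 3 not past the test, against 24.2% lower and 15.9% higher over all genes. The median change was -0.75, against -0.08 for all genes, and arrays of the groups did not overlap in 31 lower genes (21.9% of all genes) and 2 higher ones (13.3% of all genes). The 14-day calls depended on how the array slide was treated. On the 10 arrays with scanner output, 30 genes were lower and 2 higher at 14 days, and with slide as a block 13 were lower and 0 higher, at a median of -0.73. The share of all named genes called in these fits was not computed, so the loss of calls cannot be set against that over all genes. The 13 were Pnpla2, Cpt2, Mlycd, Acacb, Acadvl, Hadh, Echs1, Eci1, Eci2, Ech1, Etfa, Etfdh and Acot13. The other lower genes each had a negative change in that fit and an adjusted p of 0.0513 to 0.133, and Acsl5 (0.43, adjusted p = 0.0701) and Cpt1a (0.34, adjusted p = 0.0794) did not pass either. Between the times, 30 genes were higher at 14 days than at 3 days, 3 were lower and 3 did not pass, against 33.6% higher and 26.9% lower over all genes. The median difference was 0.83, against 0.08 for all genes. Here arrays did not overlap in 21 higher genes (23.8% of all genes) and 3 lower ones (22.3% of all genes). The plot of levels by array shows this as a block of low values at 3 days and intermediate values at 14 days, broken by the rows of Acsl4, Acsl5 and Cpt1a.

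**Figure D1:**
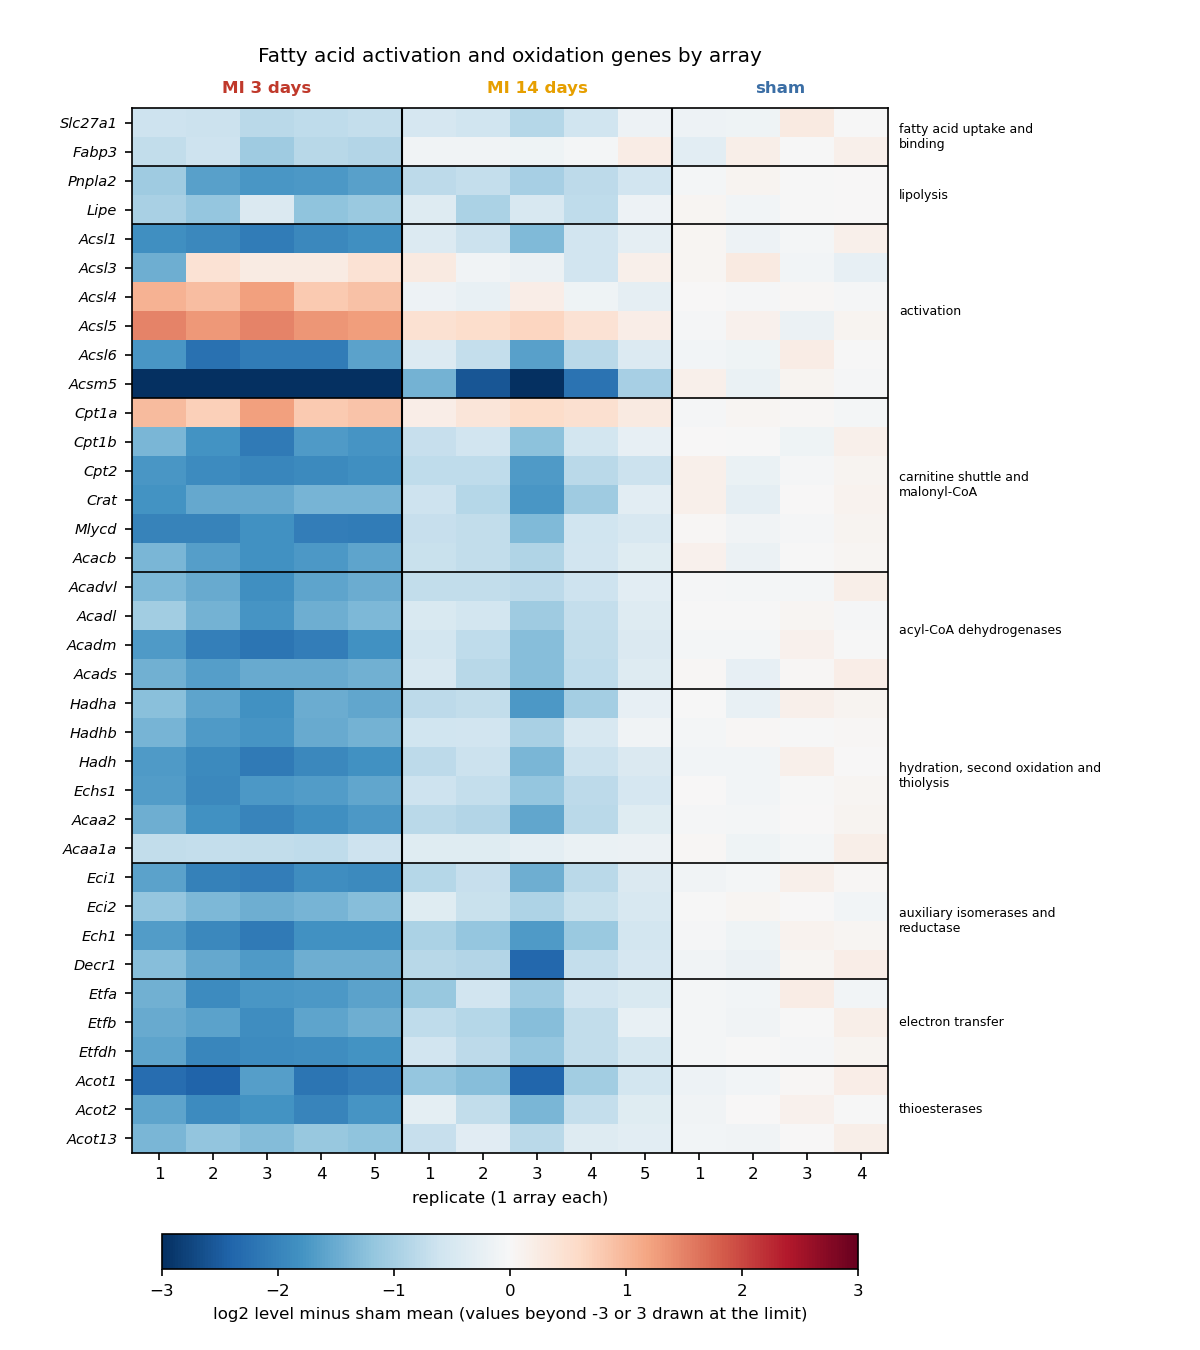
Log2 level of each of the 36 genes (rows, grouped by role) on each of the 14 arrays (columns), minus the mean of the 4 sham arrays. Blue is below and red above the sham mean, with the scale limited to -3 and 3. In MI 3 days hearts 32 genes were lower and Acsl4, Acsl5 and Cpt1a higher than in sham hearts, and MI 14 days replicate 3 was the lowest array of its group for 29 of the 36 genes.

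The nuclear receptor PPARα, paired with RXR, binds pairs of the half-site AGGTCA in 1 direction with 1 base between them, and the oestrogen-related receptors bind the extended half-site TCAAGGTCA. Both are known activators of fatty acid oxidation genes, and the receptor genes Ppara and Esrra were lower after MI (Ppara changed by -1.96 ± 0.16 at 3 days and -1.02 ± 0.16 at 14 days, Esrra by -1.36 ± 0.12 and -0.73 ± 0.12). Other probes of Ppara gave -2.18 and -1.09 at 3 days and -1.12 and -0.49 at 14 days. Promoter windows of 300 bases, from 250 before to 50 after the transcription start, were available from RefSeq (GRCm38.p6) for 31 of the 36 genes, and Acaa2, Crat, Acot13, Decr1 and Cpt1b had no entry. On either strand, the pair of half-sites was found in 0 of the 31 genes and in 0.0481% of all 27025 genes with a window. With the fourth base of each half-site left free (AGGNCA), it was again in 0 of the 31 and in 0.451% of all genes. The extended half-site, which contains the half-site, was found in 1 of the 31, Acsl6, and in 0.466% of all genes. A single half-site was found in 6 of the 31 (19.4%), Acsl6, Cpt1a, Acacb, Acadvl, Acadm and Echs1, and in 18.1% of all genes. These are matches of letters in a short window, and enhancers lie outside it. Windows of 3 of these genes are shown 5′ to 3′ on the gene's strand, for Acadm and Acsl6, which fell, and for Cpt1a, which rose on the probe used here. Capitals mark the half-site, all on the strand opposite to the gene, and in Acsl6 the second run of capitals is the extended half-site.
Acadm (chr3:153944594-153944893, minus strand): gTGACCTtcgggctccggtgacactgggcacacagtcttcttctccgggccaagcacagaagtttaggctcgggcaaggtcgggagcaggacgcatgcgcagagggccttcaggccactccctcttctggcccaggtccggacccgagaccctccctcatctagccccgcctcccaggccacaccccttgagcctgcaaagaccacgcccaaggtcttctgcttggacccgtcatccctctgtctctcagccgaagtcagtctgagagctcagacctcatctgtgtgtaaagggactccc
Acsl6 (chr11:54303574-54303873, plus strand): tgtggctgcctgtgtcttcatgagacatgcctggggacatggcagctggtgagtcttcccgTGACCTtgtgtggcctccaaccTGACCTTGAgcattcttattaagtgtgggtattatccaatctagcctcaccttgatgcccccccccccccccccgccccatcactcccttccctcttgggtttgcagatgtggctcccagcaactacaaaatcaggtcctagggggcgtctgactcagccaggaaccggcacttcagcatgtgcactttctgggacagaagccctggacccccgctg
Cpt1a (chr19:3323051-3323350, plus strand): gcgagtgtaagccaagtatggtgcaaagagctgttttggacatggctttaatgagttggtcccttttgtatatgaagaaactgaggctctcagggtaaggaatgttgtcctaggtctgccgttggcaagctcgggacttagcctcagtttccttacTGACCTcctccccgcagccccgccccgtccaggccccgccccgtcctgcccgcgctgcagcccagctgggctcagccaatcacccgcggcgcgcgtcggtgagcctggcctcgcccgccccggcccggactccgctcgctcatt
The first base of the match lay at -249 relative to the start site in Acadm, at -189 and -167 in Acsl6 and at -94 in Cpt1a.

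Both genes of fatty acid uptake and binding were lower at 3 days, and 1 of them was lower at 14 days. Fabp3, the fatty acid-binding protein of heart muscle, had levels of 8.82, 8.94, 8.49, 8.73 and 8.69 in MI 3 days hearts, 9.45, 9.46, 9.43, 9.51 and 9.78 in MI 14 days hearts and 9.25, 9.74, 9.55 and 9.71 in sham hearts. It was 1.77-fold lower at 3 days, a change of -0.83 ± 0.12 (adjusted p = 3.54e-05), with no overlap between the groups. At 14 days the change was -0.04 ± 0.12 (adjusted p = 0.841) and the groups overlapped. Against MI 3 days, Fabp3 was higher at 14 days by 0.79 ± 0.11 (adjusted p = 5.29e-05). Its second probe gave -0.70, 0.06 and 0.75 in the same comparisons. Slc27a1, a fatty acid transport protein of the plasma membrane, had levels of 1.78, 1.74, 1.58, 1.63 and 1.68 in MI 3 days hearts, 1.89, 1.79, 1.53, 1.80 and 2.24 in MI 14 days hearts and 2.24, 2.27, 2.67 and 2.38 in sham hearts. It changed by -0.71 ± 0.13 at 3 days and by -0.54 ± 0.13 at 14 days (adjusted p = 0.000242 and 0.00588). Its change between the times was 0.17 ± 0.12 (adjusted p = 0.245).

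The lipases that release fatty acids from stored triglyceride were both lower at both times. Pnpla2, adipose triglyceride lipase, starts this breakdown, and it had levels of 5.08, 4.52, 4.39, 4.42 and 4.52 in MI 3 days hearts, 5.36, 5.42, 5.13, 5.36 and 5.57 in MI 14 days hearts and 6.07, 6.22, 6.12 and 6.14 in sham hearts. No MI array reached the sham range. The change was -1.55 ± 0.13 (adjusted p = 2.29e-07) at 3 days and -0.77 ± 0.13 (adjusted p = 0.000798) at 14 days, and 0.78 ± 0.12 (adjusted p = 0.000123) between the times. Lipe, hormone-sensitive lipase, acts on diglyceride and is also abundant in fat cells, and it had levels of -2.21, -2.40, -1.67, -2.44 and -2.34 in MI 3 days hearts, -1.63, -2.18, -1.71, -1.99 and -1.38 in MI 14 days hearts and -1.17, -1.32, -1.24 and -1.22 in sham hearts. The highest MI 3 days value was that of replicate 3, the array with skeletal muscle genes. Lipe changed by -0.97 ± 0.17 (adjusted p = 0.000206) at 3 days and by -0.54 ± 0.17 (adjusted p = 0.0281) at 14 days. The 14-day call was lost when sham replicate 1, 3 or 4 or MI 14 days replicate 2 or 4 was left out (-0.54 to -0.44, adjusted p 0.0562 to 0.0665). Its rise between the times, 0.43 ± 0.16 (adjusted p = 0.0354), was likewise lost without MI 3 days replicate 1, 2, 4 or 5 or MI 14 days replicate 1, 3 or 5 (0.33 to 0.44, adjusted p up to 0.0934).

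The 6 acyl-CoA synthetases, which activate fatty acids of different chain lengths, did not move together. At 3 days 3 were lower, 2 higher and 1 not past the test. Acsl1, the major long-chain synthetase of heart muscle, had levels of 5.50, 5.41, 5.24, 5.41 and 5.50 in MI 3 days hearts, 6.94, 6.71, 6.02, 6.77 and 7.07 in MI 14 days hearts and 7.40, 7.19, 7.29 and 7.51 in sham hearts. Its arrays formed 3 separate ranges, lowest at 3 days and highest in sham. Acsl1 was 3.82-fold lower at 3 days, a log2 change of -1.93 ± 0.17 (adjusted p = 3.09e-07), and 1.57-fold lower at 14 days, a log2 change of -0.65 ± 0.17 (adjusted p = 0.0101). The difference between the times was 1.29 ± 0.16 (adjusted p = 1.52e-05). Its second probe gave -1.67 at 3 days and -0.47 at 14 days, the second value not past the test (adjusted p = 0.0834).

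Acsl4, a synthetase that prefers arachidonic acid, and Acsl5 rose while Acsl1 fell. Acsl4 had levels of 2.15, 2.03, 2.35, 1.91 and 1.99 in MI 3 days hearts, 0.96, 0.90, 1.32, 0.99 and 0.84 in MI 14 days hearts and 1.13, 1.08, 1.16 and 1.09 in sham hearts. Every MI 3 days array lay above every other array. The change was 0.97 ± 0.11 (adjusted p = 3.07e-06) at 3 days, -0.11 ± 0.11 (adjusted p = 0.458) at 14 days and -1.09 ± 0.10 (adjusted p = 1.42e-06) between the times. Acsl5, a synthetase of outer mitochondrial membrane and endoplasmic reticulum, had levels of 1.67, 1.48, 1.68, 1.50 and 1.43 in MI 3 days hearts, 0.65, 0.72, 0.82, 0.62 and 0.39 in MI 14 days hearts and 0.15, 0.32, 0.00 and 0.26 in sham hearts. The 3 groups did not overlap, with MI 3 days highest and sham lowest. Acsl5 was 2.58-fold higher at 3 days, a log2 change of 1.37 ± 0.10 (adjusted p = 6.82e-08), and 1.37-fold higher at 14 days, a log2 change of 0.46 ± 0.10 (adjusted p = 0.00380). Between the times it changed by -0.91 ± 0.10 (adjusted p = 3.44e-06). In these bulk samples, fewer cells of a type and less RNA per cell cannot be told apart. Markers of other cells moved at the same time as Acsl4 and Acsl5. Of 9 tested macrophage markers 7 were higher and 1 lower at 3 days, and 3 higher and 1 lower at 14 days, with median changes of 1.68 and 0.55. Their summed level in units of the array's 75th percentile, in which the brightest probes weigh most, was 179 to 233 in MI 3 days, 196 to 226 in MI 14 days and 172 to 227 in sham hearts. Of 6 tested neutrophil markers 5 were higher and 1 lower at 3 days and 1 was higher at 14 days, with median changes of 2.88 and 0.01 and summed levels of 191 to 271, 214 to 238 and 208 to 228 in the same order of groups. Each tested marker of both types was well above background on at least 1 MI 3 days scanner array, and Cd68 and Ly6g had no tested probe. The part of these cells in the Acsl4 and Acsl5 results was not tested.

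Acsl3, a synthetase of lipid droplets and endoplasmic reticulum, had levels of -3.83, -1.92, -2.10, -2.11 and -1.91 in MI 3 days hearts, -2.08, -2.47, -2.52, -2.93 and -2.20 in MI 14 days hearts and -2.30, -2.09, -2.43 and -2.60 in sham hearts. MI 3 days replicate 1 lay far below the other arrays, and the groups otherwise overlapped. The changes of -0.02 ± 0.33 (adjusted p = 0.959) at 3 days, -0.09 ± 0.33 (adjusted p = 0.871) at 14 days and -0.06 ± 0.31 (adjusted p = 0.875) between the times did not pass the test. Without MI 3 days replicate 1 the 3-day change was 0.34 and the difference between the times -0.43 (adjusted p = 0.0362). Acsl6, better known as a synthetase of brain, had levels of -1.96, -2.47, -2.32, -2.33 and -1.82 in MI 3 days hearts, -0.63, -0.93, -1.85, -1.02 and -0.63 in MI 14 days hearts and -0.30, -0.36, 0.00 and -0.23 in sham hearts. The MI values were all below the sham values, and MI 14 days replicate 3 lay within the MI 3 days range. Acsl6 changed by -1.96 ± 0.22 (adjusted p = 3.29e-06) at 3 days, one of the 6 largest falls, and by -0.79 ± 0.22 (adjusted p = 0.0143) at 14 days. Its second probe was not past the test at 14 days (-0.54, adjusted p = 0.244). Acsm5, a medium-chain synthetase, had levels of -6.50, -6.68, -5.86, -6.33 and -5.33 in MI 3 days hearts, -2.95, -4.10, -5.40, -3.76 and -2.53 in MI 14 days hearts and -1.38, -1.73, -1.45 and -1.58 in sham hearts. It was not well above background on either MI 3 days scanner array and was so on 3 of the 4 MI 14 days ones. Its 3-day fall is therefore a bound of at least 9.28-fold, resting on 2 of the 5 MI 3 days arrays, and the bound itself was not tested. The limma fit of the measured values gave an adjusted p of 1.00e-06. The measured means were -6.14 in MI 3 days and -1.53 in sham hearts. At 14 days Acsm5 was 4.64-fold lower than in sham, a log2 change of -2.21 ± 0.46 (adjusted p = 0.00260), the largest fall of the 36 genes at that time.

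**Figure D2:**
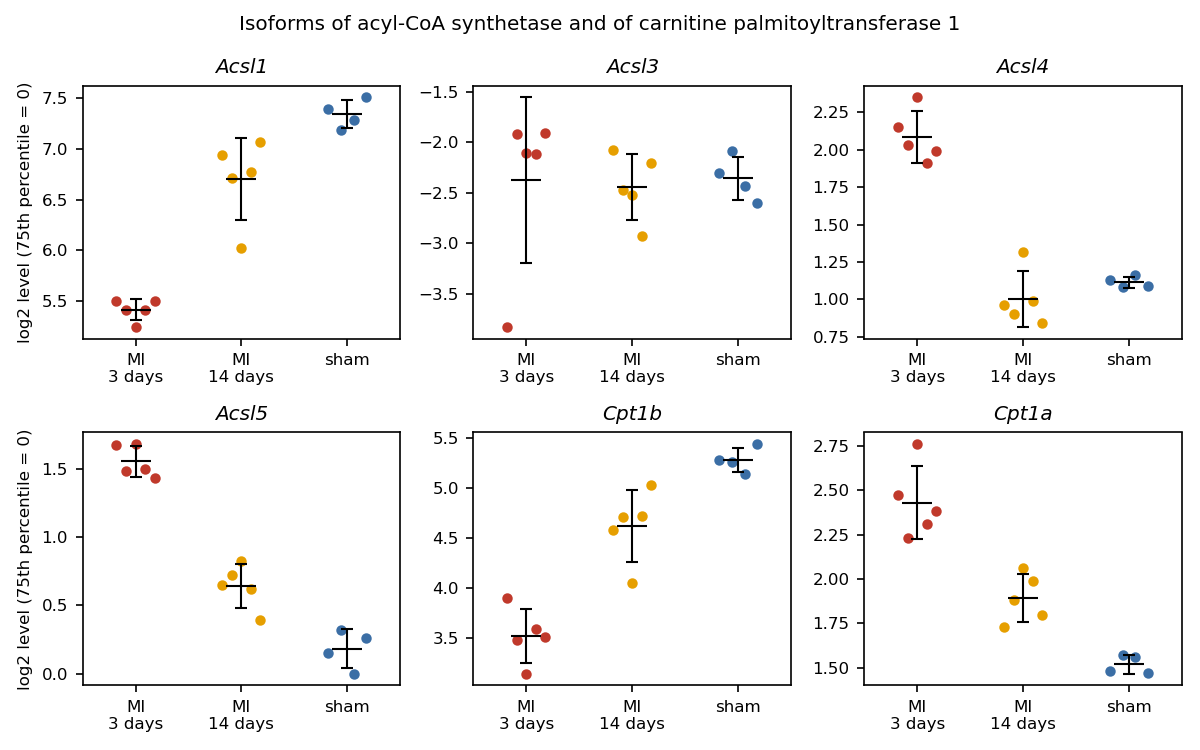
Log2 levels of 4 long-chain acyl-CoA synthetases and the 2 forms of carnitine palmitoyltransferase 1 by group. Points are arrays, horizontal marks are group means, bars are SD (n = 5, 5 and 4), and each panel has its own scale. Acsl1 and Cpt1b were lowest in MI 3 days hearts, while Acsl4, Acsl5 and Cpt1a were highest there, and Acsl3 overlapped between the groups with 1 MI 3 days array at -3.83.

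In the carnitine shuttle and its control by malonyl-CoA, 5 of 6 genes were lower and 1 was higher at both times. Cpt1b, the muscle form of carnitine palmitoyltransferase 1, catalyses the entry step, and had levels of 3.90, 3.48, 3.15, 3.59 and 3.51 in MI 3 days hearts, 4.58, 4.71, 4.05, 4.72 and 5.03 in MI 14 days hearts and 5.28, 5.26, 5.14 and 5.44 in sham hearts. All MI 3 days arrays were below all MI 14 days arrays, and these were below all sham arrays. Cpt1b changed by -1.75 ± 0.18 (adjusted p = 1.12e-06) at 3 days and -0.66 ± 0.18 (adjusted p = 0.0110) at 14 days. Its second probe gave -1.30 at 3 days and -0.43 at 14 days, the second value not past the test (adjusted p = 0.0590). Cpt1a, the liver form of the same enzyme, also made by other cell types, had levels of 2.47, 2.23, 2.76, 2.31 and 2.38 in MI 3 days hearts, 1.73, 1.88, 2.06, 1.99 and 1.80 in MI 14 days hearts and 1.48, 1.57, 1.56 and 1.47 in sham hearts. Its order was the reverse, with MI 3 days highest and sham lowest and no overlap. Cpt1a was 1.88-fold higher at 3 days, a log2 change of 0.91 ± 0.11 (adjusted p = 4.71e-06), and 1.30-fold higher at 14 days, a log2 change of 0.38 ± 0.11 (adjusted p = 0.0152). This rests on 1 of its 2 probes. The second gave 0.19 (adjusted p = 0.137) at 3 days and 0.04 (adjusted p = 0.815) at 14 days, and which of the 2 follows the transcript was not tested.

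Cpt2, the inner-membrane enzyme that completes the transfer, had levels of 4.38, 4.25, 4.18, 4.22 and 4.28 in MI 3 days hearts, 5.37, 5.36, 4.44, 5.31 and 5.48 in MI 14 days hearts and 6.29, 5.92, 6.10 and 6.21 in sham hearts. Its arrays also formed separate ranges, with MI 14 days replicate 3 next to the highest MI 3 days array. Cpt2 changed by -1.87 ± 0.17 (adjusted p = 5.65e-07) at 3 days and -0.94 ± 0.17 (adjusted p = 0.00137) at 14 days. Crat, carnitine acetyltransferase, which buffers acetyl groups, had levels of -0.96, -0.71, -0.71, -0.55 and -0.57 in MI 3 days hearts, 0.21, -0.03, -0.92, -0.23 and 0.52 in MI 14 days hearts and 0.99, 0.57, 0.84 and 0.94 in sham hearts. MI 14 days replicate 3 lay within the MI 3 days range. Crat changed by -1.54 ± 0.22 (adjusted p = 3.38e-05) at 3 days and -0.93 ± 0.22 (adjusted p = 0.00614) at 14 days. The difference between the times was 0.61 ± 0.21 (adjusted p = 0.0236), and it was not past the test without MI 3 days replicate 1 or MI 14 days replicate 1 or 5 (0.46 to 0.55, adjusted p up to 0.0611).

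Mlycd, which removes malonyl-CoA, and Acacb, a form of the carboxylase that makes it, were both lower at both times. The other carboxylase form, Acaca, is given with the wider pathway and was higher at 3 days. Mlycd, malonyl-CoA decarboxylase, had levels of 3.75, 3.74, 3.93, 3.68 and 3.64 in MI 3 days hearts, 5.05, 5.02, 4.42, 5.15 and 5.27 in MI 14 days hearts and 5.78, 5.65, 5.72 and 5.84 in sham hearts. Acacb, the acetyl-CoA carboxylase form found at the mitochondrial surface, had levels of 3.68, 3.41, 3.25, 3.34 and 3.47 in MI 3 days hearts, 4.40, 4.32, 4.15, 4.49 and 4.69 in MI 14 days hearts and 5.19, 4.89, 5.04 and 5.12 in sham hearts. Neither gene overlapped between any 2 groups. Mlycd was 4.01-fold lower at 3 days, a log2 change of -2.0 ± 0.14 (adjusted p = 4.29e-08), and 1.70-fold lower at 14 days, a log2 change of -0.77 ± 0.14 (adjusted p = 0.00121). Acacb changed by -1.63 ± 0.12 (adjusted p = 5.20e-08) and -0.65 ± 0.12 (adjusted p = 0.00108) at the same times, and its second probe by -1.77 and -0.76. Both were higher at 14 days than at 3 days, by 1.24 ± 0.13 for Mlycd and 0.98 ± 0.11 for Acacb.

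The 4 acyl-CoA dehydrogenases carry out the first oxidation for very long, long, medium and short chains, and all were lower at both times. Acadm, the medium-chain enzyme, had levels of 5.97, 5.61, 5.48, 5.60 and 5.86 in MI 3 days hearts, 7.12, 6.90, 6.39, 6.92 and 7.23 in MI 14 days hearts and 7.60, 7.62, 7.80 and 7.66 in sham hearts. The 3 groups did not overlap. Acadm was 3.90-fold lower at 3 days, a log2 change of -1.96 ± 0.15 (adjusted p = 1.11e-07), one of the 6 largest falls, and 1.69-fold lower at 14 days, a log2 change of -0.76 ± 0.15 (adjusted p = 0.00228). Levels of Acadvl, the very-long-chain enzyme, were 6.39 to 6.89 in MI 3 days hearts, 7.45 to 7.92 in MI 14 days hearts and 8.16 to 8.40 in sham hearts. It changed by -1.55 ± 0.12 at 3 days and -0.63 ± 0.12 at 14 days. Levels of Acadl, the long-chain enzyme, were 4.0 to 4.73 in MI 3 days hearts, 4.70 to 5.38 in MI 14 days hearts and 5.73 to 5.83 in sham hearts, with changes of -1.40 ± 0.15 and -0.63 ± 0.15. The short-chain enzyme Acads changed by -1.52 ± 0.15 and -0.75 ± 0.15. Adjusted p was 1.89e-06 or less for these 3 genes at 3 days and 0.00557 or less at 14 days. All 4 were higher at 14 days than at 3 days, by 0.77 to 1.21.

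The later steps of the cycle were lower in all 6 genes at both times, with changes of -1.90 to -0.72 at 3 days and -0.90 to -0.28 at 14 days. Hadha, the alpha subunit of the trifunctional protein, which carries out hydration and the second oxidation of long chains, had levels of 3.26, 2.92, 2.69, 3.02 and 2.95 in MI 3 days hearts, 3.72, 3.76, 2.77, 3.49 and 4.26 in MI 14 days hearts and 4.48, 4.29, 4.65 and 4.59 in sham hearts. MI 14 days replicate 3 lay at the bottom of its group, within the MI 3 days range. Hadha changed by -1.53 ± 0.22 (adjusted p = 3.78e-05) at 3 days and -0.90 ± 0.22 (adjusted p = 0.00759) at 14 days. Hadhb, the beta subunit with the thiolase activity, had levels of 6.51 to 6.89 in MI 3 days hearts, 7.31 to 8.19 in MI 14 days hearts and 8.22 to 8.33 in sham hearts, and changed by -1.56 ± 0.14 (adjusted p = 4.14e-07) and -0.54 ± 0.14 (adjusted p = 0.00973). Its 3 groups did not overlap. The rise between the times was 1.02 ± 0.13 (adjusted p = 2.41e-05) for Hadhb and 0.63 ± 0.21 (adjusted p = 0.0208) for Hadha, and that of Hadha was not past the test without MI 3 days replicate 3 (0.56, adjusted p = 0.0523) or MI 14 days replicate 5 (0.47, adjusted p = 0.0512).

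Hadh, the shorter-chain dehydrogenase of the second oxidation, changed by -1.90 ± 0.16 at 3 days and -0.78 ± 0.16 at 14 days. Echs1, the short-chain hydratase, changed by -1.72 ± 0.12 and -0.76 ± 0.12. Acaa2, the mitochondrial thiolase, changed by -1.77 ± 0.18 and -0.88 ± 0.18. Acaa1a is the peroxisomal thiolase, and it moved least of this group. Its levels were 5.24 to 5.39 in MI 3 days hearts, 5.64 to 5.84 in MI 14 days hearts and 5.87 to 6.17 in sham hearts, with changes of -0.72 ± 0.08 (adjusted p = 2.70e-06) and -0.28 ± 0.08 (adjusted p = 0.0155). The 14-day call of Acaa1a was lost without sham replicate 4 (-0.22, adjusted p = 0.0522), with the percentile over tested probes (-0.20, adjusted p = 0.0768), with quantile normalization (-0.10, adjusted p = 0.316), on the 10 scanner arrays (-0.26, adjusted p = 0.0752) and with normexp (-0.14, adjusted p = 0.548), as well as with the slide block (-0.35, adjusted p = 0.0524).

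The auxiliary enzymes, which bring the double bonds of unsaturated fatty acids into a form the cycle can use, were lower in 4 of 4 genes at both times. Ech1, a dienoyl-CoA isomerase, had levels of 5.73, 5.47, 5.30, 5.59 and 5.60 in MI 3 days hearts, 6.46, 6.26, 5.72, 6.29 and 6.86 in MI 14 days hearts and 7.38, 7.28, 7.51 and 7.48 in sham hearts. It changed by -1.87 ± 0.17 (adjusted p = 5.23e-07) at 3 days and by -1.09 ± 0.17 (adjusted p = 0.000510) at 14 days. Decr1, the mitochondrial dienoyl-CoA reductase, had levels of 6.05, 5.81, 5.63, 5.88 and 5.87 in MI 3 days hearts, 6.50, 6.45, 4.97, 6.63 and 6.82 in MI 14 days hearts and 7.23, 7.17, 7.40 and 7.54 in sham hearts. MI 14 days replicate 3 was below every other array of the study. Decr1 changed by -1.49 ± 0.29 (adjusted p = 0.000414) at 3 days and -1.06 ± 0.29 (adjusted p = 0.0120) at 14 days. Its second probe gave -2.03 ± 0.16 and -0.99 ± 0.16 at these times. The 14-day fall of Ech1 and that of Decr1 were among the 4 largest at that time, after Acsm5 and Acot1. Decr1 did not pass between the times, at 0.43 ± 0.27 (adjusted p = 0.192), but did without MI 14 days replicate 3 (0.75, adjusted p = 8.06e-05) and on its second probe (1.04, adjusted p = 6.25e-05). The enoyl-CoA isomerases Eci1 and Eci2 changed by -1.90 ± 0.16 and -1.33 ± 0.10 at 3 days and by -0.85 ± 0.16 and -0.62 ± 0.10 at 14 days.

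Electrons from the dehydrogenases pass to the electron transfer flavoprotein, made of the Etfa and Etfb subunits, and on to its membrane oxidoreductase Etfdh. The 3 genes were lower at both times within narrow ranges, -1.82 to -1.60 at 3 days and -0.77 to -0.76 at 14 days. Etfdh had levels of 5.29, 4.93, 4.98, 5.01 and 5.08 in MI 3 days hearts, 6.31, 6.10, 5.71, 6.13 and 6.34 in MI 14 days hearts and 6.83, 6.87, 6.85 and 6.96 in sham hearts. The groups did not overlap. Etfdh was 3.53-fold lower at 3 days, a log2 change of -1.82 ± 0.12 (adjusted p = 2.77e-08), and 1.70-fold lower at 14 days, a log2 change of -0.76 ± 0.12 (adjusted p = 0.000485).

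Thioesterases split acyl-CoA back into fatty acid and coenzyme A, and all 3 were lower at both times. Acot1, the cytosolic form, had levels of 0.42, 0.30, 1.05, 0.50 and 0.62 in MI 3 days hearts, 1.53, 1.43, 0.32, 1.66 and 2.14 in MI 14 days hearts and 2.54, 2.62, 2.74 and 2.90 in sham hearts. MI 14 days replicate 3 lay within the MI 3 days range. Acot1 was 4.36-fold lower at 3 days, a log2 change of -2.12 ± 0.28 (adjusted p = 1.26e-05), and 2.44-fold lower at 14 days, a log2 change of -1.29 ± 0.28 (adjusted p = 0.00321). Acot2, the mitochondrial form, had levels of -0.52, -0.83, -0.74, -0.91 and -0.72 in MI 3 days hearts, 0.76, 0.31, -0.31, 0.35 and 0.69 in MI 14 days hearts and 0.95, 1.07, 1.18 and 1.04 in sham hearts, with changes of -1.80 ± 0.18 (adjusted p = 8.23e-07) and -0.70 ± 0.18 (adjusted p = 0.00818). The 2 genes are near-identical copies, so their probes may share signal and their separate values are uncertain. Acot13, a thioesterase found at mitochondria, changed by -1.23 ± 0.11 and -0.50 ± 0.11.

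**Figure D3:**
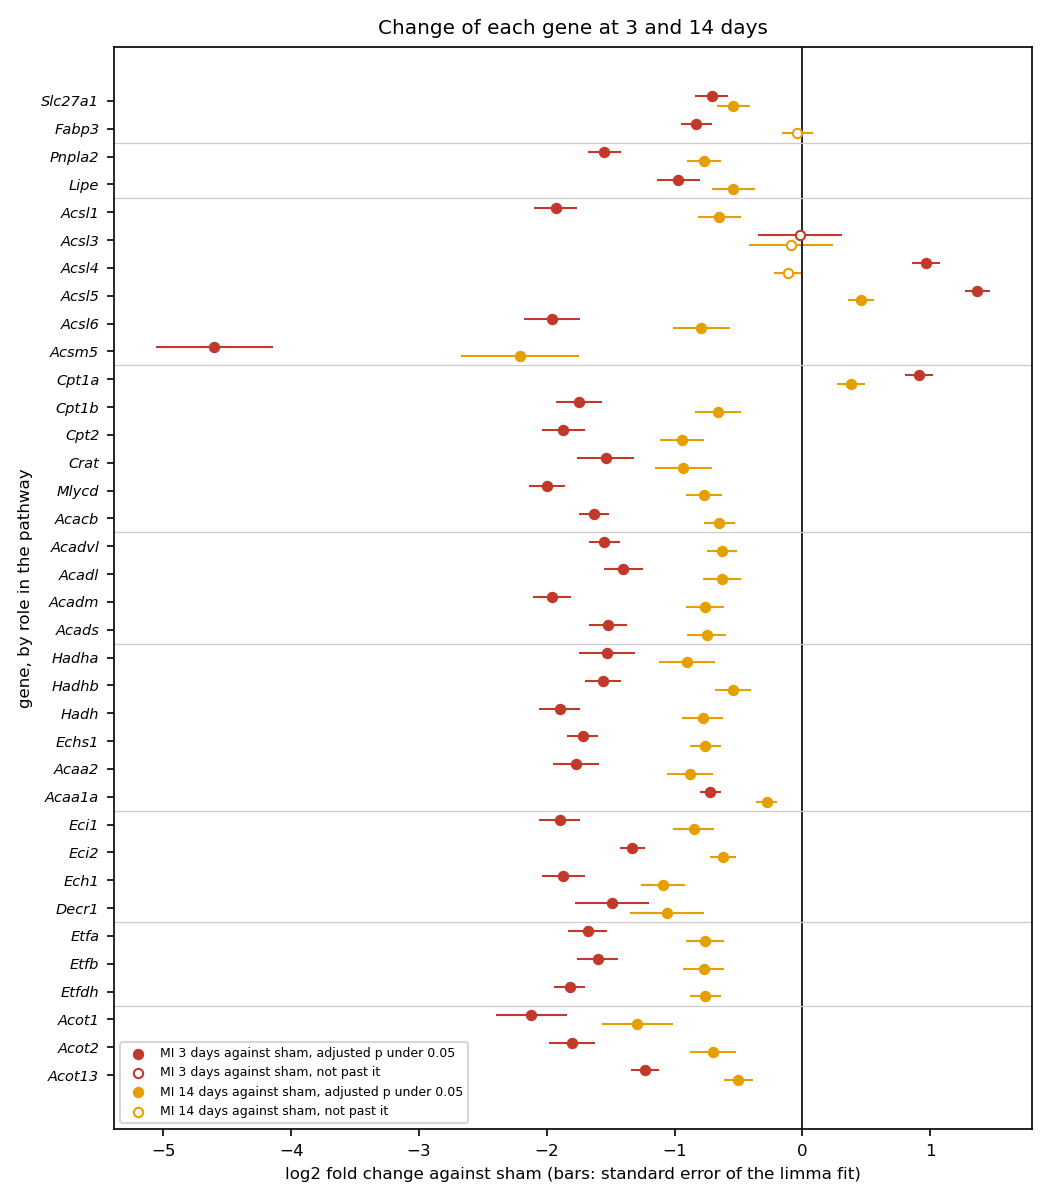
Log2 fold change against sham for each of the 36 genes at 3 days (red) and 14 days (orange), by role. Bars are the SE of the limma fit, and open points did not pass an adjusted p of 0.05. The 3-day point of Acsm5 is its measured value, where the fall is only a bound. At 3 days 32 genes lay below 0 and past the test, with a median of -1.58 over the 36, and at 14 days 31 did, with a median of -0.75.

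The isoforms of 1 reaction were then compared within each array by exact permutation tests over arrays (two-sided, 12 tests, Benjamini-Hochberg adjusted, smallest possible p 0.00794). Differences of log2 levels between 2 probes have no meaning as levels, and only their change between groups is given. In all 3 comparisons the arrays of Cpt1a and of Cpt1b had already separated, in opposite directions. The same held for Acsl4 and Acsl1 at 3 days and between the times. In these cases the separation of the difference follows from the single-gene values, so its p adds no further support. Cpt1a minus Cpt1b was higher by 2.66 at 3 days than in sham hearts (adjusted p = 0.0238), higher by 1.04 at 14 days (adjusted p = 0.0317), and at 14 days differed from 3 days by -1.62 (adjusted p = 0.0238). All 3 values use the Cpt1a probe that rose and the Cpt1b probe with the larger fall. Acsl4 minus Acsl1 was higher by 2.91 at 3 days (adjusted p = 0.0238) and by 0.53 at 14 days (adjusted p = 0.0667), and the difference between the times was -2.37 (adjusted p = 0.0238). Acsl3 minus Acsl1 was higher by 1.91 at 3 days (adjusted p = 0.0408). It was higher by 0.56 at 14 days (adjusted p = 0.0635) and differed by -1.35 between the times (adjusted p = 0.0595). Acot1 minus Acot2 changed by -0.32 at 3 days (adjusted p = 0.130) and by -0.59 at 14 days (adjusted p = 0.0317), and by -0.27 between the times (adjusted p = 0.246). Leaving out an array raises the smallest p these tests can reach. Without MI 3 days replicate 2, 4 or 5 the 3-day changes of Cpt1a minus Cpt1b (2.67 to 2.71) and of Acsl4 minus Acsl1 (2.92 to 2.95) no longer passed. The 3-day change of Acsl3 minus Acsl1 no longer passed without sham replicate 1, 3 or 4 or MI 3 days replicate 2, 3, 4 or 5 (1.78 to 1.91, adjusted p 0.0595 to 0.0762), and the 14-day change of Acot1 minus Acot2 without any 1 of the 4 sham arrays (-0.62 to -0.51, adjusted p 0.0595 to 0.0804).

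To set the genes against contractile genes of cardiomyocytes on the same array, each array was also centred on the mean log2 level of 14 sarcomere genes, among them cardiac troponins and myosins. Those genes were themselves lower in 14 of 14 at 3 days (-1.64 to -0.50) and in 4 of 14 at 14 days. Whether each of them is particular to cardiomyocytes was not tested. Their mean shifted by -1.05 at 3 days, by -0.18 at 14 days and by 0.87 between the times. Relative to them, 25 of the 36 genes were lower at 3 days and 6 higher, with 5 not past the test, against 6.70% lower and 74.8% higher over all named genes. The median of the 36 was -0.53 and that of all genes 0.90. Acsm5 was among the lower ones, with no value given since it was not well above background in MI 3 days hearts. The others included Acot1 (-1.07 ± 0.26), Mlycd (-0.95 ± 0.15), Acadm (-0.91 ± 0.14), Acsl1 (-0.88 ± 0.15) and Hadh (-0.85 ± 0.14). The higher ones were Acsl5 (2.42 ± 0.17), Acsl4 (2.02 ± 0.18), Cpt1a (1.96 ± 0.17), Acsl3 (1.03 ± 0.33), Slc27a1 (0.34 ± 0.12) and Acaa1a (0.33 ± 0.11). Centred on the median of the sarcomere genes, which shifted by -1.35, 15 genes were lower and 7 higher at 3 days, and the median of the 36 was -0.24. Shares over all named genes were not computed for this second centre. The call for Slc27a1 was lost without sham replicate 2 or 4 (0.29 each). The lower calls for Crat, Acadl and Hadha were also lost in some fits that left out 1 array. The count of lower genes ranged from 22 to 26 in these fits. The 5 genes not past the test were Fabp3 (0.22 ± 0.10), Lipe (0.07 ± 0.20), Acot13 (-0.18 ± 0.11), Eci2 (-0.28 ± 0.13) and Decr1 (-0.44 ± 0.25). Fabp3 was called higher with the median centre (0.52, adjusted p = 0.00164) and in some fits that left out 1 array. Eci2 and Decr1 were called lower in some of the latter fits. Lipe stood at -0.12 without MI 3 days replicate 3.

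At 14 days 27 of the 36 genes were lower relative to the sarcomere genes and 2 higher, against 7.65% lower and 17.8% higher over all named genes, with medians of -0.57 and 0.10. Ech1 changed by -0.91 ± 0.14, Cpt2 by -0.76 ± 0.17 and Hadha by -0.72 ± 0.19, while Acsl5 was higher by 0.64 ± 0.17 and Cpt1a by 0.56 ± 0.17. The Cpt1a call was lost without any 1 of the 4 sham arrays or without MI 14 days replicate 2, 3 or 4 (0.48 to 0.59). The count of lower genes ranged from 19 to 28 when 1 array was left out. The lower calls lost in some of these fits were those of Acsl1, Acsl6, Cpt1b, Acadl, Hadhb, Eci2, Decr1, Etfa and Acot2. Centred on the median of the sarcomere genes, 20 were lower and 1 higher at 14 days, with a median of -0.58. Between the times 4 genes were higher at 14 days (Acsl1, Acsm5, Mlycd and Acadm) and 6 lower (Slc27a1, Acsl3, Acsl4, Acsl5, Cpt1a and Acaa1a), and 26 did not pass, against 3.29% higher and 76.5% lower over all genes. The median difference of the 36 genes was -0.04. Acsl1 was higher by 0.42 ± 0.14 (adjusted p = 0.0143), Mlycd by 0.37 ± 0.14 (adjusted p = 0.0309) and Acadm by 0.34 ± 0.13 (adjusted p = 0.0335). This comparison depended on the array and the centre. Without MI 14 days replicate 3 there were 9 higher genes, without MI 3 days replicate 2 or 4 or MI 14 days replicate 1, 2 or 4 there were 2, and with the median of the sarcomere genes there were 1 higher and 19 lower. The plot of both centrings shows the points shifted upwards at 3 days and little at 14 days.

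**Figure D4:**
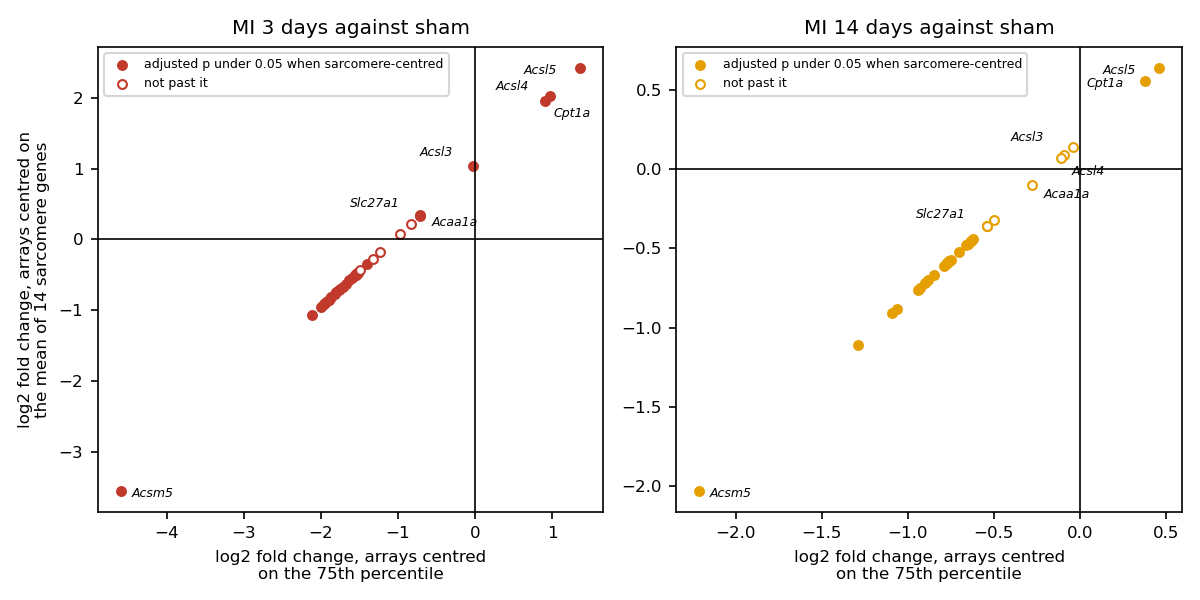
Log2 fold change of the 36 genes with arrays centred on the 75th percentile (horizontal) and on the mean of 14 sarcomere genes (vertical), at 3 days (left) and 14 days (right) against sham. Filled points passed an adjusted p of 0.05 in the sarcomere-centred fit, with 25 lower and 6 higher at 3 days and 27 lower and 2 higher at 14 days. The 3-day point of Acsm5 is its measured value, which was not well above background in MI 3 days hearts.

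Of 51 other genes of fatty acid handling and its control, 47 had a tested probe. At 3 days 37 were lower, 5 higher and 5 not past the test, with a median of -0.94, against 40.5% lower and 29.8% higher over all named genes. At 14 days 29 were lower, 1 higher and 17 not past it, with a median of -0.43, against 24.2% and 15.9% over all genes. Between the times 29 were higher, 6 lower and 12 not past it, against 33.6% higher and 26.9% lower. Angptl4, a secreted inhibitor of lipoprotein lipase and a PPAR target, was higher by 4.02 ± 0.29 (adjusted p = 6.07e-08) at 3 days and by 1.33 ± 0.29 (adjusted p = 0.00371) at 14 days, while lipoprotein lipase itself, Lpl, changed by -1.55 ± 0.14 and -0.80 ± 0.14. The second probe of Lpl gave -1.10 at 3 days and -0.52 at 14 days, the latter not past the test (adjusted p = 0.0560). Fabp5, a binding protein of macrophages and skin, was higher at 3 days by 1.56 ± 0.11 (adjusted p = 3.72e-08), and its change at 14 days was -0.01 ± 0.11 (adjusted p = 0.938). Acaca, the carboxylase form of lipid synthesis, was higher at 3 days by 0.87 ± 0.11 (adjusted p = 1.33e-05) where Acacb was lower. Acot9 (0.98 ± 0.10) and Ucp3 (0.93 ± 0.19) were the other 2 higher genes at 3 days, and the second probe of Ucp3, an uncoupling protein of mitochondria, was lower (-1.77 ± 0.42, adjusted p = 0.00198), so the direction of Ucp3 depends on the probe.

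Among the lower genes, Plin5, which coats lipid droplets next to mitochondria, changed by -2.41 ± 0.14 (adjusted p = 1.07e-08) at 3 days and by -1.33 ± 0.14 (adjusted p = 2.95e-05) at 14 days. G0s2, an inhibitor of Pnpla2, changed by -2.13 ± 0.21 at 3 days and by -0.39 ± 0.21 (adjusted p = 0.170) at 14 days. Cd36, the main fatty acid translocase of the heart, changed by -1.08 ± 0.14 and -0.59 ± 0.14, and Slc25a20, which carries acylcarnitine across the inner membrane, by -1.44 ± 0.16 and -0.76 ± 0.16. Ppargc1a, a coactivator of PPARα and of mitochondrial genes, differed from most of the list in its order, with -0.90 ± 0.18 (adjusted p = 0.000622) at 3 days, -1.38 ± 0.18 (adjusted p = 0.000138) at 14 days and -0.48 ± 0.17 (adjusted p = 0.0278) between the times. Pdk4, which limits glucose oxidation, changed by -0.65 ± 0.33 (adjusted p = 0.102) at 3 days and by -1.28 ± 0.33 (adjusted p = 0.00949) at 14 days.

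As another mitochondrial group, 27 of 27 genes of the respiratory chain were lower at 3 days (median -1.35) and 25 at 14 days (median -0.51), and 27 were higher at 14 days than at 3 days (median 0.81). Centred on sarcomere genes, 15 were lower at 3 days and 15 at 14 days, with medians of -0.30 and -0.33, and with a median difference of -0.06 between the times. The medians of the 36 genes beside these were -0.53 and -0.57, and the difference between the lists was not tested. Both rest on the mean of the sarcomere genes as the centre. Of 8 fibroblast markers 5 were higher and 1, Dcn (-0.56 ± 0.08), was lower at 3 days, and 8 were higher at 14 days. Over all named genes 29.8% were higher and 40.5% lower at 3 days, and 15.9% were higher at 14 days. The median changes of the fibroblast markers were 0.45 and 1.67. Their summed level was 843 to 1154 in MI 3 days, 1117 to 1604 in MI 14 days and 422 to 451 in sham hearts. The summed sarcomere level was 5028 to 5941, 8683 to 11755 and 8412 to 10587 in the same groups. The part of these other cells in the falls of the 36 genes was not tested beyond the sarcomere-centred fit.

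Scanner output of 10 arrays named 3 slides, and a slide held arrays of more than 1 group. Within a slide, differences are given as values, since the genes were called on these same arrays. The medians cover the full list of fatty acid genes, called or not. On slides 2 and 3, each with 1 MI 3 days array, the median difference from the slide's sham array was -1.60 and -1.64. On slide 1, with 1 MI 14 days and 2 sham arrays, the median difference of MI 14 days from sham was -0.58. It was -0.82 on slide 3, with 3 MI 14 days arrays, replicate 3 among them, and 1 sham array. Between the times the median difference on slide 3 was 0.75, from 3 MI 14 days arrays and 1 MI 3 days array. With slide as a block in the 10-array fit, 32 genes were lower and 3 higher at 3 days. Between the times 19 were higher and 2 lower, against 27 and 3 on the same arrays without the block. Shares over all named genes were not computed for these fits.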

How the data were processed

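The authors deposited a table of linear intensity values, 1 for each probe on each array, that were not scaled between arrays. Its values were the processed signal of Agilent Feature Extraction 10.7.3.1, background-subtracted per the file headers, on the 10 arrays with scanner intensity files. The submitters' processing notes list limma and give it no role. Here log2 of the deposited intensity was taken and each array's 75th percentile over 55482 non-control probes subtracted. The 32261 tested probes were those that, in 1 or more groups, all scanner arrays flagged as well above background. The planned match by gene name was replaced by the probe's accession, named through a RefSeq gene table (27129 of 27658 RefSeq accessions matched). The tested probe with the highest mean level stood for a gene.

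A single model over the 3 groups was fitted in R 4.3.3 with limma 3.58.1 (two-sided, Benjamini-Hochberg over all tested probes, threshold 0.05), tested on simulated data. Isoform pairs were compared by exact permutation. Alternatives changed the scaling, filter, background correction, arrays, slide or replicate block, probe rule and centring. The number of arrays limits the precision, and no spot was saturated. Poly-T purification and labelling of total RNA are both named, per the labels' protocols. Full values were given by a rule for role representatives, for genes higher or not past the test, and for the 6 largest falls at 3 days and the 4 largest changes at 14 days. The 36 genes, the other lists and the tests were chosen with earlier results of these data known. The replicate numbers were not used to pair arrays in the main fit. Correlations of same-numbered arrays' deviations ran from -0.135 to 0.2245. They were not set against those of differently numbered arrays, so pairing was not tested. One result is not reported here.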

Additional observations from a re-analysis of the deposited data

Results flagged for a closer look

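In 7 of 108 series of a gene's levels within a group, 1 array stood apart from the others by more than Dixon's critical gap. Chance flags about 1 in 20 such series. Acsl3 was -3.83 in MI 3 days replicate 1, where the nearest array was at -2.11. In the same array Pnpla2 was 5.08, above the next value of 4.52. MI 14 days replicate 3, the array with the highest adipocyte genes, was low in Decr1 at 4.97 (nearest 6.45) and in Cpt2 at 4.44 (nearest 5.31). Fabp3 was 9.78 in MI 14 days replicate 5, above the next value of 9.51. In sham hearts Acadvl was 8.40 in replicate 4 (nearest 8.19) and Etfa was 7.65 in replicate 3 (nearest 7.38).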

How the results depend on the processing

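With arrays centred on the 75th percentile, the direction and the side of the threshold were kept in 1018 of 1077 pairs of a gene's change and another setting, and in 1481 of 1512 that leave out 1 array. Counts of lower and higher genes at 3 days were 32 and 3 in each fit that left out 1 array. At 14 days 29 to 31 were lower and 2 higher, and between the times 27 to 30 were higher and 3 to 4 lower. With slide as a block on the 10 scanner arrays, limma called 13 lower and 0 higher at 14 days, and 19 higher between the times. For this fit the share of all named genes called was not computed. The 14-day count of higher genes was 1 with normexp and 1 with the mean of a gene's probes. The replicate block gave 32 lower and 3 higher, 31 and 2, and 3 and 30, so the block changed none of these counts. For changes near 0, the sign turned. Acsl3 at 3 days was 0.03 with the percentile over tested probes, 0.09 with quantile normalization, 0.34 on the scanner arrays, 0.08 with normexp and 0.53 with the slide block, and -0.14 to 0.34 with 1 array left out. Acsl3 at 14 days was 0.02 with the slide block and -0.17 to 0.04 with 1 array left out, and -0.43 to 0.06 between the times. Fabp3 at 14 days was 0.05 with the percentile over tested probes, 0.0094 with the mean of its probes and -0.14 to 0.02 with 1 array left out. Centred on sarcomere genes, leaving out 1 array gave 22 to 26 lower and 5 to 7 higher at 3 days, 19 to 28 lower and 1 to 2 higher at 14 days, and 6 to 7 lower and 2 to 9 higher between the times. With the median of the sarcomere genes these were 15 lower and 7 higher at 3 days, 20 lower and 1 higher at 14 days, and 19 lower and 1 higher between the times. Eci2 and Acot13 at 3 days then stood at 0.02 and 0.11. With 1 array left out, sarcomere-centred values were -0.12 to 0.16 for Lipe at 3 days, and -0.03 to 0.20 for Acsl3 and -0.04 to 0.18 for Acsl4 at 14 days. The cause of these changes was not tested.

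With 1 array left out, isoform differences were as follows. Cpt1a minus Cpt1b was 2.49 to 2.75 at 3 days, 0.86 to 1.17 at 14 days and -1.81 to -1.45 between the times. Acsl4 minus Acsl1 was 2.80 to 2.95, 0.28 to 0.66 and -2.62 to -2.24. Acsl3 minus Acsl1 was 1.78 to 2.30, 0.41 to 0.70 and -1.74 to -1.21, and -1.30 between the times with the mean of a gene's probes, where it passed. Acot1 minus Acot2 was -0.44 to -0.22, -0.69 to -0.48 and -0.37 to -0.15. Fewer arrays allow fewer regroupings, and the adjusted p then crossed the threshold in both directions. Normexp used spot medians, chosen after seeing the data, since the planned setting on spot means was not run, and the sarcomere-centred comparison between the times was also added after seeing the data. Signal over background limits Acsm5 in MI 3 days hearts, where its fall is a bound.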
